A study of Drosophila melanogaster with 24 samples.

Results

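These data concern 5 genes that the study named as neighbouring partners beside predicted binding sites of Su(Hw): wun and wun2, Nha1 (CG10806) and Nlg2 (neuroligin), and SrpRbeta, whose partner is hairy (h, now hry). Members were matched to probes through the Entrez number of their CG number, among analysed probes with 1 gene symbol. Of the 5 genes, 4 were matched to a probe, 1 probe each, among 14444 probes analysed for 11990 genes. SrpRbeta had no match in the annotation used and was not analysed here, so its pair with hry could not be compared. The study itself reported changed expression of both SrpRbeta and h in the null mutants. The lack of a match therefore does not show that the arrays held no probe for SrpRbeta. wun and wun2 lie next to each other on arm 2R, Nha1 and Nlg2 next to each other on arm 2L, and SrpRbeta and hry on arm 3L.

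Su(Hw) is a zinc-finger DNA-binding protein that is best known for making the gypsy retrotransposon's binding region into an insulator, a stretch of DNA that can keep an enhancer from acting on a promoter beyond it. wun and wun2 encode lipid phosphate phosphatases of the cell surface that guide migrating germ cells in the embryo. Nha1 encodes a sodium/proton antiporter, Nlg2 a synaptic adhesion protein that binds neurexins, SrpRbeta the membrane-anchored subunit of the signal recognition particle receptor, and hry a transcriptional repressor.

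Predicted sites of the kind these pairs are said to flank are shown by 3 matches to the Su(Hw) matrix on arm 2L, chosen for their likeness to the commonest base at each position among the study's plus-strand matches. They are not sites of the 5 genes, and the capitals mark the 20 matched bases. The study lists the first match as below its enrichment threshold for Su(Hw) binding, and the others as above it.
Match at chr2L:14939553-14939572, plus strand, release 3.1: gttcGTTGCATACTTTTGGCCGCCtgtt
Match at chr2L:13677997-13678016, plus strand, release 3.1: gtttGTTGCATACTTCTGGGCGCGcaga
Match at chr2L:14082802-14082821, plus strand, release 3.1: ctgcGTTGCATACTTTTAGGCGCAtcga
The 3 sequences share the run GTTGCATACTT at the left of the match. To the right of it they are alike at some positions and differ at others, among them the last base of the match.

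RNA from whole animals and from dissected wing imaginal discs, the larval tissue that forms the wing, was hybridised on 24 two-colour arrays. The null genotype, su(Hw)/Df, carried the null allele su(Hw)v with the transgene p[CasX/K] over the deletion Df(3R)ED5644. The heterozygotes were su(Hw)/+, which carried su(Hw)v and the same transgene over an Oregon R chromosome, and Df/+, which carried Df(3R)ED5644 over an Oregon R chromosome. Each genotype had 4 arrays per tissue, 2 of them dye swapped, and all were set against 1 pool of wild-type (Oregon R) RNA of that tissue. Animals were soft white pre-pupae, 10 or 20 per larval extraction. Per the labels, 6 discs went into each disc extraction. The study's methods give a different number of discs and an amplification step, and the files do not settle which holds. The null animals carried both of the lesions that the heterozygotes carried singly, and they alone had no Oregon R parent. All 5 genes lie off arm 3R, which holds su(Hw) and the deletion.

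A value is the log2 ratio of genotype over pool, so that 0 is the level of the pool and -1 is a halving. Larval arrays gave a value for 9110 to 11673 probes and disc arrays for 4972 to 11157, with 3 disc arrays below 50% of the probes. Array medians lay between -0.13 and 0.27 in larvae and between -0.18 and 0.19 in discs. On larval arrays the median averaged 0.139 where the genotype was in Cy3 and -0.076 where it was in Cy5. The su(Hw) probe, which checks the genotypes, read -3.36 to -2.19 on the 4 su(Hw)/Df larval arrays, against -0.86 to -0.07 on the 8 heterozygote larval arrays. In discs it read -2.99 to -1.52 on the su(Hw)/Df arrays, against -1.17 to 0.29 on the heterozygote arrays, and in neither tissue did the groups overlap. A ratio to a pool of the same tissue gives no level, so the presence of a tissue's markers could not be checked. In RNA from whole animals, fewer cells of a type and less RNA per cell cannot be told apart.

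Of the members tested in larvae, wun alone passed the test over all probes in su(Hw)/Df against the heterozygotes. The study named wun with changes on these su(Hw)/Df arrays in view, so its p-value is not independent of that choice. The log2 ratio of wun to the pool was -1.02, -1.03, -1.14 and -0.81 on the su(Hw)/Df arrays. It was -0.18, -0.00, -0.34 and -0.29 on the su(Hw)/+ arrays, and -0.32, -0.11, -0.53 and -0.12 on the Df/+ arrays. Every su(Hw)/Df array lay below every heterozygote array. The mean was -1.001 ± 0.14 in su(Hw)/Df larvae, against -0.20 ± 0.15 in su(Hw)/+ and -0.27 ± 0.20 in Df/+ larvae (SD, n = 4 each). The log2 difference between su(Hw)/Df and the mean of the heterozygotes was -0.77 with a standard error of 0.14, a 1.70-fold lower signal (limma, adjusted p = 0.00742). It was -0.74 on arrays with the genotype in Cy3 and -0.79 on arrays with it in Cy5.

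wun2 was lower in su(Hw)/Df larvae on average, but did not pass the test over all probes. Its log2 ratio was -0.23, -0.87 and -0.53 on 3 su(Hw)/Df arrays, with no value on replicate 1. It was 0.19, 0.01, -0.01 and 0.54 on the su(Hw)/+ arrays, and -0.24, 0.00, -0.30 and 0.32 on the Df/+ arrays. A single su(Hw)/Df value, -0.23 on replicate 2, lay within the range of the heterozygotes. The means were -0.54 ± 0.32 in su(Hw)/Df larvae (SD, n = 3), against 0.18 ± 0.26 in su(Hw)/+ and -0.05 ± 0.28 in Df/+ larvae (SD, n = 4 each). The log2 difference was -0.61 with a standard error of 0.20 (limma, adjusted p = 0.132). It was -0.78 on arrays with the genotype in Cy3, where su(Hw)/Df had 1 value, and -0.60 on arrays with it in Cy5. With dye orientation as a term in the fit, which allows for an offset between the dye-swapped arrays, the difference was -0.67 and passed (limma, adjusted p = 0.0387), and over all the alternatives run the adjusted p ran between 0.0387 and 0.382.

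Nha1, on the other arm, read higher in su(Hw)/Df larvae, again without passing the test over all probes. Its log2 ratio was 0.63, 0.55, 0.92 and 0.56 on the su(Hw)/Df arrays. It was 0.05, 0.29, 0.38 and 0.09 on the su(Hw)/+ arrays, and 0.73, 0.23, 0.19 and 0.27 on the Df/+ arrays. The groups overlapped through 1 array, Df/+ replicate 1, and the other 7 heterozygote arrays lay below all the su(Hw)/Df arrays. The means were 0.67 ± 0.17 in su(Hw)/Df, against 0.20 ± 0.16 in su(Hw)/+ and 0.35 ± 0.25 in Df/+ larvae (SD, n = 4 each). The log2 difference from the heterozygotes was 0.39 with a standard error of 0.15 (limma, adjusted p = 0.197).

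Nlg2 had the highest ratios of the 4 genes and the fewest values. Its log2 ratio was 1.95, 0.76, 1.77 and 0.47 on the su(Hw)/Df arrays, against -0.31 and 0.81 on 2 su(Hw)/+ arrays and 0.18 and 0.41 on 2 Df/+ arrays. The 2 highest su(Hw)/Df values lay above every heterozygote value, and both came from arrays with the genotype in Cy3. The mean was 1.24 ± 0.73 in su(Hw)/Df larvae, against 0.27 ± 0.47 over the heterozygotes (SD, n = 4 each), a log2 difference of 0.96. An exact 2-sided permutation test gave p = 0.0857, where the smallest p that 4 against 4 arrays allow is 0.0286. Within the arrays with the genotype in Cy3 the difference was 1.36, and within those in Cy5 it was 0.57. Nlg2 had fewer than the 3 values per heterozygote that the main fit across all probes required. With at least 2 values per genotype the same fit gave 0.96 and did not pass (limma, adjusted p = 0.282).

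**Figure D1:**
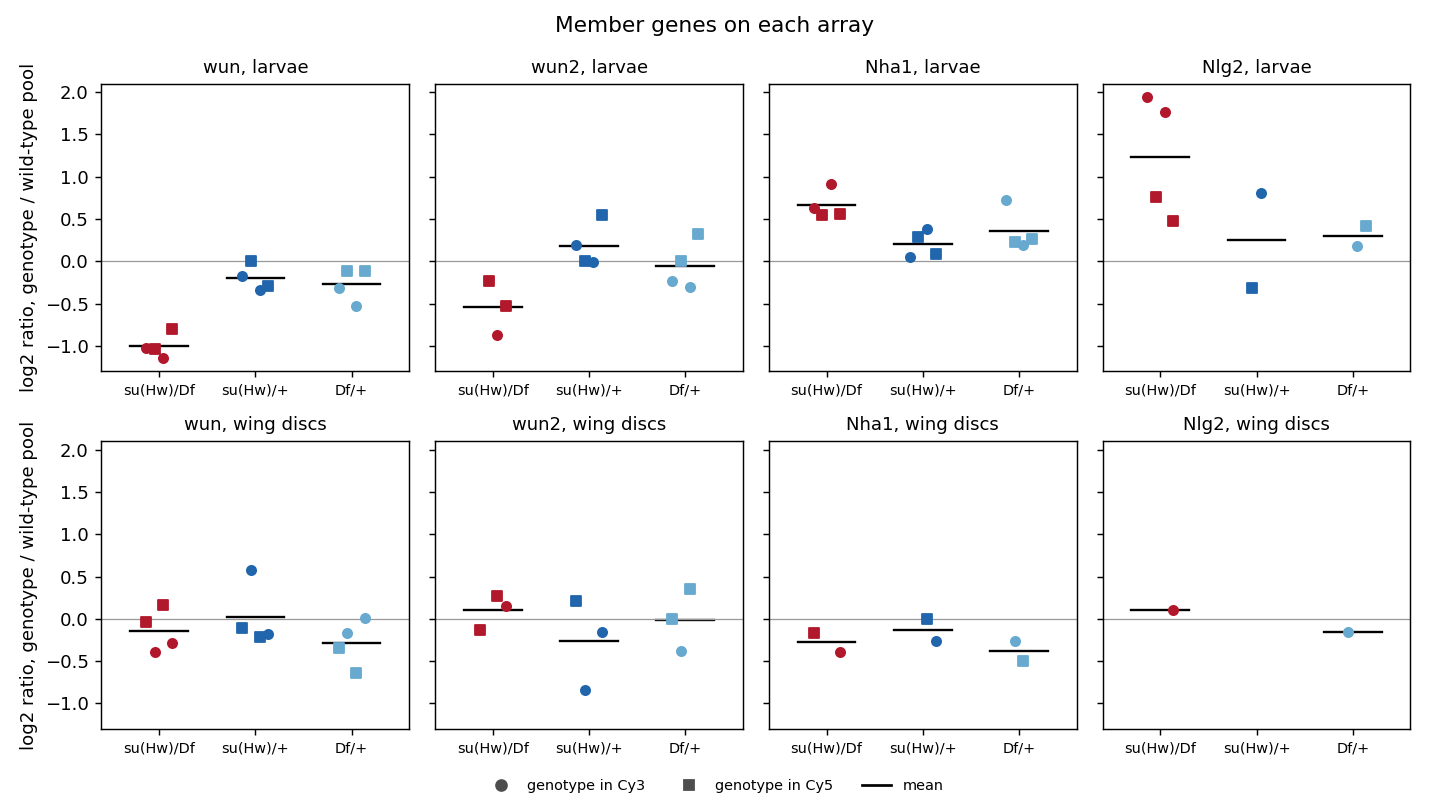
Log2 ratio of genotype over wild-type pool (y axis) on each array of larvae (top) and wing discs (bottom) for wun, wun2, Nha1 and Nlg2, with su(Hw)/Df left of the heterozygotes su(Hw)/+ and Df/+; circles are arrays with the genotype in Cy3, squares in Cy5, and the black line is the mean. In larvae the 4 su(Hw)/Df values of wun, between -1.14 and -0.81, lie below all heterozygote values, and the other 3 genes overlap with them.

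Of the 3 members that could be tested in larvae, 1 was called lower and 0 were called higher in su(Hw)/Df against the heterozygotes, where 233 of 8197 probes, 2.84%, were called (1.76% lower and 1.09% higher). At an unadjusted p under 0.05, 3 of the 3 members passed, as did 1328 of the 8197 probes. Non-overlap of su(Hw)/Df and heterozygote arrays, seen for wun, held for 3.46% of the probes tested. The study picked the pairs with expression changes of the null mutants in view, and the same su(Hw)/Df arrays enter here. The counts, and the p-values of the members against the heterozygotes, are therefore not independent of that choice. For that reason the ratios of su(Hw)/Df to the pool stand as a description only: -1.001 for wun, -0.54 for wun2, 0.67 for Nha1 and 1.24 for Nlg2, in a comparison where 27.7% of the probes were called.

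No member tested in heterozygous larvae was called against the pool in the main fit. Nlg2 had too few values in the heterozygotes to be tested there. For wun the log2 ratio to the pool was -0.20 with a standard error of 0.11 in su(Hw)/+ larvae (limma, adjusted p = 0.192) and -0.27 with a standard error of 0.12 in Df/+ larvae (limma, adjusted p = 0.116). For wun2 it was 0.18 in su(Hw)/+ larvae (limma, adjusted p = 0.373) and -0.05 in Df/+ larvae (limma, adjusted p = 0.838). Nha1 stood at 0.20 in su(Hw)/+ larvae (limma, adjusted p = 0.228) and at 0.35 in Df/+ larvae (limma, adjusted p = 0.0605). So 0 of the 3 genes passed in either heterozygote, where 28.3% of the probes were called in su(Hw)/+ and 19.7% in Df/+ larvae. For Nha1 in Df/+ the adjusted p lay between 0.0356 and 0.281 over the alternatives, and was 0.0356 with dye orientation as a term and 0.0428 over probes with 4 values per genotype.

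Whether the 2 genes of a pair changed by the same amount was asked of the difference between them on each array. wun minus wun2 averaged -0.45 ± 0.30 on 3 su(Hw)/Df larval arrays, against -0.30 ± 0.26 on 8 heterozygote arrays (SD). The log2 difference of wun was lower than that of wun2 by these means, at -0.15, which did not pass (exact permutation test, 2-sided, p = 0.473, adjusted p = 0.75 over 5 tests). Nha1 minus Nlg2 averaged -0.57 ± 0.63 on 4 su(Hw)/Df larval arrays, against 0.01 ± 0.43 on 4 heterozygote arrays (SD). That difference of -0.58, the larger change being in Nlg2, did not pass either (exact permutation test, 2-sided, p = 0.229, adjusted p = 0.571). The spread leaves room for unequal change in both pairs, and the p-values do not show that the genes changed alike.

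In direction, the partners matched in larvae: wun and wun2 were both lower on average in su(Hw)/Df than in the heterozygotes, and Nha1 and Nlg2 both higher. Among 3365 pairs of neighbouring genes with both tested in larvae, 50.5% had log2 differences of the same sign. Of the 165 such pairs with at least 1 gene called, 55.8% had the same sign, and in 10 pairs both genes were called. Of wun and wun2, wun was called and wun2 was not. Nlg2 was not in the main fit, so its pair with Nha1 could not have both genes called. That pair is therefore not among the neighbouring pairs counted here. The named pairs were also picked with changes on the same su(Hw)/Df arrays in view.

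**Figure D2:**
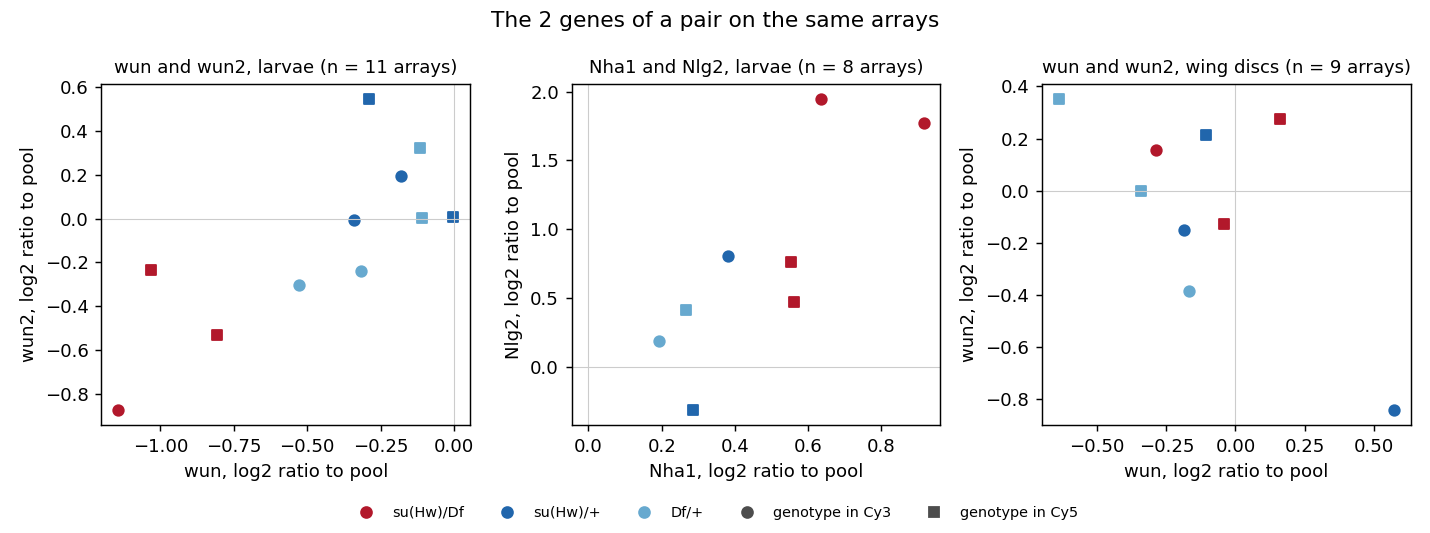
Log2 ratio to the pool of the first gene (x axis) against that of its partner (y axis), 1 point per array with both genes measured: wun and wun2 in 11 larval arrays, Nha1 and Nlg2 in 8 larval arrays, wun and wun2 in 9 wing disc arrays. Red marks su(Hw)/Df, dark blue su(Hw)/+, light blue Df/+, circles the genotype in Cy3 and squares in Cy5. In discs 1 su(Hw)/+ array, at 0.57 for wun and -0.84 for wun2, lies far from the rest.

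Whether partners also moved together from array to array in larvae was asked over heterozygote arrays or over deviations from the genotype means. The su(Hw)/Df arrays lay apart from the heterozygotes in wun, and in Nha1 on the arrays it shares with Nlg2. No correlation of the ratios themselves is therefore given over all larval arrays. Over the 8 heterozygote larval arrays wun and wun2 had Pearson's r = 0.40 (exact permutation p = 0.328, adjusted p = 0.422 over 18 tests) and Spearman's rho = 0.55 (exact permutation p = 0.171, adjusted p = 0.28). Without the 2 arrays farthest from the median of wun, r was 0.23. The median r over 3752 pairs of neighbouring genes on the same arrays was 0.057, with quartiles of -0.283 and 0.394. After the means of genotype and dye orientation were taken out, r for wun and wun2 became -0.42. Without Df/+ replicate 3 r over the heterozygote arrays was 0.04, so the weak positive value there rests on that array. The means of the heterozygotes were not taken out of that value. Over deviations from the genotype means on 11 larval arrays, su(Hw)/Df included, r for wun and wun2 was 0.35 and rho 0.53.

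For Nha1 and Nlg2, deviations from the genotype means over 8 larval arrays gave r = 0.67 (permutation p = 0.0488, adjusted p = 0.14 over 18 tests). Spearman's rho was 0.76 (permutation p = 0.0368, adjusted p = 0.14). Each heterozygote had 2 of these arrays, whose deviations are equal and opposite by construction. The deviations cannot be exchanged freely, so these p-values are not exact and can be too small. Without the 2 arrays farthest from the median of Nha1, r was 0.63. The median of the same measure over 4139 pairs of neighbouring genes, which shared 8 or more larval arrays, was 0.056, with an upper quartile of 0.383. Once each array was centred on its own median the sign turned, to r = -0.27. Each dye orientation held 4 of these arrays, too few for a correlation of its own.

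In wing discs no member that could be tested was called between su(Hw)/Df and the heterozygotes. wun had a log2 ratio of -0.04, -0.39, 0.16 and -0.29 on the su(Hw)/Df arrays, -0.11, 0.57, -0.21 and -0.18 on the su(Hw)/+ arrays, and -0.34, -0.17, -0.64 and 0.01 on the Df/+ arrays. The groups overlapped throughout, and the log2 difference was -0.00 with a standard error of 0.20 (limma, adjusted p = 0.997). Within dye orientations it went both ways, at -0.39 with the genotype in Cy3 and 0.39 with it in Cy5. wun2 had -0.13, 0.28 and 0.16 on 3 su(Hw)/Df arrays, 0.21, -0.84 and -0.15 on 3 su(Hw)/+ arrays, and -0.00, -0.38 and 0.35 on 3 Df/+ arrays. Its groups overlapped too, with a log2 difference of 0.24 and a standard error of 0.27 (limma, adjusted p = 0.934). That difference also went both ways, at 0.62 with the genotype in Cy3 and -0.11 with it in Cy5, and was -0.02 with the replicate number as a block.

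Nha1 gave -0.16 and -0.40 on 2 su(Hw)/Df disc arrays, 0.00 and -0.27 on 2 su(Hw)/+ arrays, and -0.26 and -0.49 on 2 Df/+ arrays. These values overlapped and were fewer than the main fit required. With at least 2 values per genotype the log2 difference was -0.02 (limma, adjusted p = 0.992). Nlg2 was measured on 2 disc arrays, at 0.10 in su(Hw)/Df and -0.16 in Df/+. Of the 2 members in the main disc fit, 0 were called by limma and 0 had an unadjusted p under 0.05, where 5 of 5550 probes, 0.0901%, were called and 240 had an unadjusted p under 0.05.

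The tissues were also compared directly. The log2 difference of wun between su(Hw)/Df and the heterozygotes, larvae minus discs, came to -0.76 with a standard error of 0.24 (limma over 24 arrays, adjusted p = 0.694). For wun2 it came to -0.85 with a standard error of 0.33 (limma, adjusted p = 0.85). Neither passed, and 0 of 5105 probes did, with 225 at an unadjusted p under 0.05. For wun minus wun2 in discs, su(Hw)/Df arrays averaged -0.16 ± 0.27 (SD, n = 3), against -0.01 ± 0.81 on the heterozygote arrays (SD, n = 6). The exact permutation test of that difference gave p = 0.75 (2-sided, adjusted p = 0.75). Over 9 disc arrays wun and wun2 had r = -0.68 (exact permutation p = 0.0543, adjusted p = 0.14) and rho = -0.38 (exact permutation p = 0.312, adjusted p = 0.422). The relation rested on few arrays: r was -0.20 without su(Hw)/+ replicate 2, and 0.31 without the 2 arrays farthest from the median of wun.

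**Figure D3:**
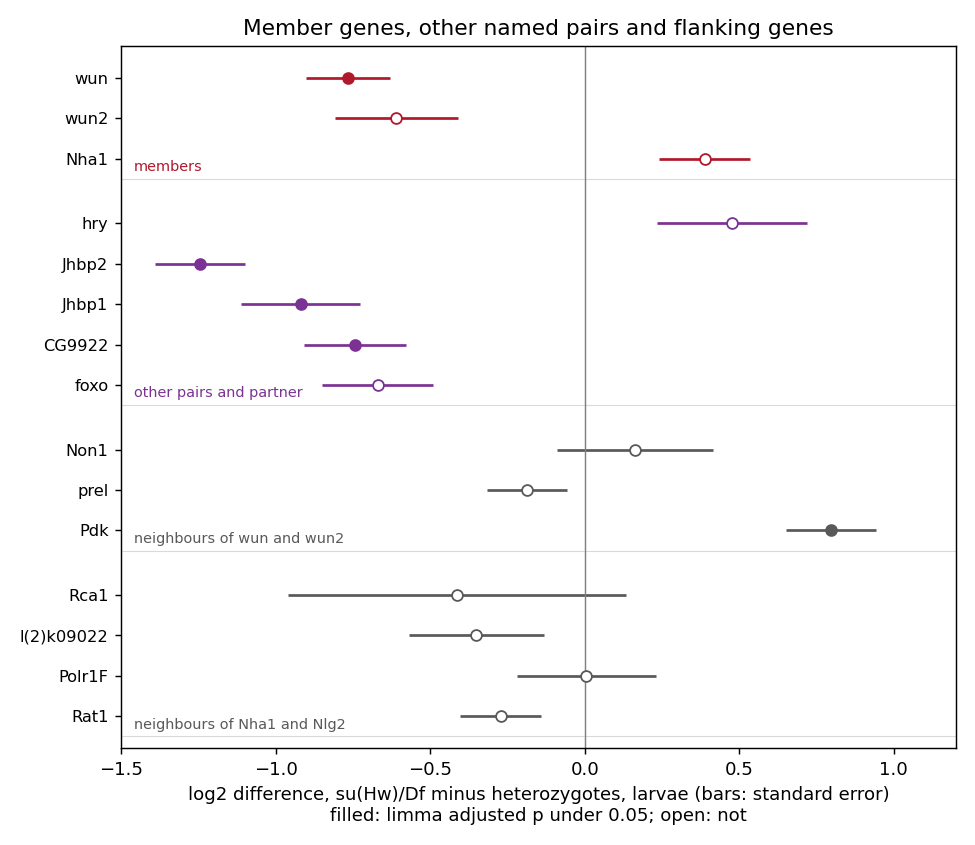
Log2 difference of su(Hw)/Df minus the heterozygotes in larvae (x axis), with standard error bars, for the members, for hry and the other 2 pairs the study named, and for genes on either side of wun and wun2 and of Nha1 and Nlg2. Filled points had a limma adjusted p under 0.05. wun is filled at -0.77, wun2 and Nha1 are open, and of the flanking genes only Pdk is filled, at 0.80.

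The genes beyond each pair did not share its direction throughout. Of 6 genes flanking wun and wun2, 3 on each side in the annotation, 5 had a probe and 3 could be tested in larvae. Non1 differed by 0.16, prel by -0.19 and Pdk by 0.80 between su(Hw)/Df and heterozygote larvae. Pdk, which encodes pyruvate dehydrogenase kinase, was called higher (limma, adjusted p = 0.009), and stood opposite in sign to wun. Of 6 genes flanking Nha1 and Nlg2, 4 could be tested in larvae, with log2 differences between -0.41 and 0.01 and 0 called (limma, lowest adjusted p = 0.33). Nha1, at 0.39, lay above all 4 of them.

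hry, the partner of SrpRbeta, had log2 ratios of 1.57, 0.27, 1.53 and 0.89 on su(Hw)/Df larval arrays. On the 8 heterozygote arrays hry ranged from 0.22 to 0.93, with a median of 0.64. Its 2 highest values, as for Nlg2, were su(Hw)/Df arrays with the genotype in Cy3. The log2 difference was 0.48 with a standard error of 0.24 (limma, adjusted p = 0.356). In the other 2 named pairs all 4 genes were lower on average in su(Hw)/Df larvae. Unlike the members, these 4 genes lie on arm 3R, which holds su(Hw) and the deletion. Whether any of them lies inside the deletion, which removes a copy in su(Hw)/Df and Df/+ animals, was not tested. Jhbp2 differed by -1.24 and its partner Jhbp1 (CG1124) by -0.92, CG9922 by -0.74 and foxo by -0.67, and the first 3 were called (limma, adjusted p of 0.000453, 0.0197 and 0.0283, against 0.0685 for foxo). Some were also lower than the pool in heterozygotes. CG9922 stood at -0.64 in su(Hw)/+ larvae and at -1.004 in Df/+ larvae (limma, adjusted p of 0.00416 and 0.000634). Jhbp1 stood at -0.67 and -0.69 in the same genotypes (limma, adjusted p of 0.00721 and 0.01), and Jhbp2 at -0.30 and -0.50 (limma, adjusted p of 0.0799 and 0.013). The foxo ratio was 0.29 for su(Hw)/+ larvae and -0.45 for Df/+ larvae, and passed in neither (limma, adjusted p of 0.162 and 0.0511).

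No tested relative of the members passed between su(Hw)/Df and heterozygote larvae, a comparison in which 2.84% of all probes were called. Of 6 other lipid phosphate phosphatase genes related to wun and wun2, with 7 probes, 5 probes were tested in larvae and 0 called, at log2 differences between -0.40 and 0.12 with a median of 0.00. Of 4 other sodium/proton exchanger genes, 2 were tested and 0 called, at -0.18 for Nhe1 and 0.56 for Nhe2. Nlg3 was the 1 tested gene of the 4 other neuroligin and neurexin genes listed, at 0.04. The 11 listed genes of the signal recognition particle and the translocon, with which the SrpRbeta protein works, lay between -0.39 and 0.23 with a median of -0.10, and 0 of 11 were called (limma, lowest adjusted p = 0.135). The median over all probes tested was 0.02.

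Markers of neurons were examined because Nlg2 is a gene of synapses. Of 10 listed neuron markers, 7 had a probe, with 9 probes in all. Of 6 probes tested in larvae, 1 was called higher and 0 lower, with a median log2 difference of 0.42. The called probe was elav, which encodes an RNA-binding protein of neurons, at 0.63 (limma, adjusted p = 0.0445). Against the pool elav stood at 0.10 in su(Hw)/Df larvae (limma, adjusted p = 0.602). In su(Hw)/+ and Df/+ larvae it stood below the pool, at -0.39 and -0.68 (limma, adjusted p of 0.0362 and 0.00367). Csp alone of the tested neuron probes had a negative log2 difference, at -0.11. Averaged over the 5 neuron marker probes with a value on all 12 larval arrays, the log2 ratio was between -0.35 and 0.41 on su(Hw)/Df arrays, between -0.57 and -0.18 on su(Hw)/+ arrays and between -0.65 and -0.07 on Df/+ arrays. Haemocyte markers had a median log2 difference of 0.50 over 3 probes tested, and fat body markers one of 0.30 over 3 probes, with 0 called in either list. In wing discs the fat body marker Fbp1 stood far below the pool, with a log2 ratio of -2.25 ± 1.01 for su(Hw)/Df, -3.45 ± 1.64 for su(Hw)/+ and -2.09 ± 0.42 for Df/+ (SD, n = 4 each). Against the pool it was called in discs of su(Hw)/Df and of su(Hw)/+ (limma, adjusted p of 0.0233 and 0.00107, against 0.0878 in Df/+). Lsp2 stood at -1.86, -2.70 and -1.66 in the same genotypes and passed in none (limma, lowest adjusted p = 0.0605). Between su(Hw)/Df and the heterozygotes in discs, 0 of 3 fat body probes were called, with a median log2 difference of 0.53. Their part in the values of the members was not tested.

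The larval pattern of wun was most like that of Jhbp2, another gene of the named pairs. Among 5563 other probes with 1 gene and 12 larval values, Pearson's r with wun was 0.971 for Jhbp2, 0.944 for Cyp6d5 and 0.929 for Cpr49Ag. All 3 were lower in su(Hw)/Df than in heterozygote larvae, by -1.24, -1.88 and -1.32, and the distance between these groups enters r. For Nha1 the best were His2A:CG31618 at 0.897, CG1603 at 0.880 and CG17343 at 0.880, with log2 differences of 0.38, 0.31 and 0.37. wun2 and Nlg2 lacked values on some larval arrays and were not ranked.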

How the data were processed

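The authors deposited log2 ratios of genotype over wild-type pool per spot, normalised together for the 12 larval slides and together for the 12 disc slides (variance stabilisation), with dye swaps already turned. Larval RNA was labelled directly, and disc RNA, per the labels, after making double-stranded cDNA. Scale and direction were checked: 3913 of 3913 genotype means lay within 0.01 of those in the study's tables. Probes in 3 or 4 spots (714) were left out. They were taken to be controls from the number of spots alone. RefSeq's Drosophila table gave names, arms and gene order only. limma (version 3.58.1, R 4.3.3) was fitted per tissue with 1 mean per genotype, over probes with at least 3 values per genotype compared, with Benjamini-Hochberg adjustment over all probes tested. It was tested on simulated data. Where a genotype had fewer values, an exact permutation test over arrays was used. The text names the members, their partners, 3 genes on each side of a pair, and the genes most like a member. Members and lists were chosen with earlier results of these data known. Precision is limited by the number of arrays. The study calls the replicates independent biological ones. Alternatives were centring, a dye term, a replicate block, other filters on missing values, robust estimation and leaving out arrays.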

Additional observations from a re-analysis of the deposited data

Results flagged for a closer look

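Among the 12 groups of 4 arrays of the members, 2 held an array far from the other 3, where chance marks about 1 in 20 groups. In su(Hw)/+ wing discs, replicate 2 read 0.57 for wun, and the other 3 arrays lay between -0.21 and -0.11; the same array gave the lowest disc value of wun2, -0.84, and had a value for 41.9% of probes. In Df/+ larvae, replicate 1 read 0.73 for Nha1, and the other 3 arrays lay between 0.19 and 0.27. The third result concerned wun2 in both tissues. All su(Hw)/Df values lay below the heterozygote mean in larvae and above it in discs, and the changes differed by -0.85 (limma interaction, adjusted p = 0.85). In discs the lowest su(Hw)/Df value, -0.127, was close to the heterozygote mean of -0.135, and the disc difference took both signs over the dye orientations (0.62 in Cy3, -0.11 in Cy5).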

How the results depend on the processing

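The call of wun in su(Hw)/Df larvae against the heterozygotes was kept under all 18 alternatives (adjusted p between 0.00284 and 0.0415). Leaving out 1 array at a time, its log2 difference ran between -0.83 and -0.72, and those of wun2 between -0.77 and -0.45 and of Nha1 between 0.31 and 0.45. In discs the range was -0.10 to 0.09 for wun and 0.09 to 0.35 for wun2. A dye term gave wun2 in larvae -0.67 (adjusted p = 0.0387). The replicate number pairs no animals, and same-numbered arrays correlated at -0.03 to 0.54 in larvae and -0.12 to 0.62 in discs. The replicate block changed no call of a member (wun -0.77, adjusted p = 0.00766, wun2 -0.64, adjusted p = 0.0773, Nha1 0.39, adjusted p = 0.183), turned the sign of wun2 in discs (-0.02 in place of 0.24), and gave 30 calls in place of 12 for Df/+ discs against the pool.

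Against the heterozygotes, su(Hw)/Df larvae gave 408 calls with a dye term in place of 233, and 133 to 216 without 1 array. Discs gave 8 calls in place of 5 with at least 2 values per genotype, and 0 to 7 without 1 array. Df/+ discs against the pool gave 21 calls with a dye term. Without 1 array, calls against the pool were 1719 to 2629 for su(Hw)/Df, 1514 to 2627 for su(Hw)/+ and 997 to 2034 for Df/+ larvae, and 14 to 48 for su(Hw)/+ and 6 to 18 for Df/+ discs. Leaving out the 3 disc arrays below 50% of probes, an alternative chosen after seeing the data, gave 4 calls.

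Centring the arrays moved r of wun and wun2 over heterozygote larvae to 0.64, and taking out dye means moved it to -0.42. Without 1 array it was 0.04 to 0.68. For Nha1 and Nlg2, centring turned r to -0.27, and without 1 array it was 0.58 to 0.89. In discs r of wun and wun2 was -0.77 over deviations from genotype means (permutation p = 0.0171, adjusted p = 0.103 over 18 tests). That p-value is not exact and can be too small, since such deviations cannot be exchanged freely. The disc r was 0.31 without 2 arrays, and -0.87 to -0.20 without 1 array. There wun minus wun2 differed between su(Hw)/Df and the heterozygotes by -0.97 on the Cy3-labelled arrays and by 0.54 on the Cy5-labelled ones. The causes were not tested. A median over repeated spots was not run, since each kept probe had 1 spot. Missing values limit Nlg2 most.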
